A study of Mus musculus with 12 samples.

Results

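The genes described here encode enzymes and regulators of sterol and fatty acid synthesis in bone marrow-derived macrophages (BMDMs). They are 37 of the 18376 genes in the deposited table, taken from a list of gene symbols that was drawn up with earlier results of these data known, and all 37 had an mRNA signal high enough to be tested. By role, 8 genes belong to the mevalonate and isoprenoid steps, 12 to the steps from squalene to cholesterol, 6 to the control of these genes and sterol transport, 3 to fatty acid synthesis, and 8 to desaturation, elongation and activation of fatty acids. BMDMs were grown from bone marrow progenitors of WT mice with 50 ng/ml M-CSF, the growth factor that turns these cells into macrophages. Cells in the CTRL group received nothing else. Activin A was added at 50 ng/ml in the Act group and FST288 at 250 ng/ml in the FST group, the Act + FST group had the 2 agents at these doses, and all cells were harvested at day 6, with 3 libraries per group. Activin A is a secreted signaling protein of the TGF-β family, and FST288 is a form of follistatin that binds it. The activin A was human recombinant protein, and the cells are a culture model made from bone marrow, not macrophages taken from a tissue. Whether libraries of a group came from separate mice or cultures is not given in the sources used here, so that p-values measure only the spread between these libraries, which may be technical.

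Cells make cholesterol from acetyl-CoA through mevalonate, isoprenoids, squalene and lanosterol. When the endoplasmic reticulum is low in sterols, SCAP carries the precursor of the transcription factor SREBP2, the product of *Srebf2*, to the Golgi, where it is cleaved and released to the nucleus. There it activates genes for cholesterol synthesis and uptake, while the related SREBP1, the product of *Srebf1*, acts more on fatty acid genes. INSIG proteins hold SCAP back when sterols are plentiful. In macrophages, which take up lipids from dead cells and lipoproteins, these genes are known to respond to the sterol load of the cell and to inflammatory signals.

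SREBPs are known to act at promoters together with the factor NF-Y, and the promoter letters of some members are given below. RefSeq promoter windows of GRCm38.p6 were found for 30 of the 37 members. The 7 without a window were *Fads1*, *Fdft1*, *Fdps*, *Scd1*, *Scd2*, *Sqle* and *Stard4*, so the shares below do not cover them. The NF-Y box CCAAT was searched on both strands in the 250 bases before each RefSeq start, and a gene counted if any of its starts had a match. It was present in 24 of these 30 members (80%), compared with 37.5% of all 27025 genes that have a promoter window and 40.6% of the 10269 such genes tested here. For *Dhcr7* the match lay only before a start inside the gene. The other motifs were counted by the same rule. The sterol regulatory element was searched as TCACNCCAC, and it was present in 1 of 30 members (3.33%), *Hmgcs1*, and in 1.22% of all genes. Its shorter core CACNCCAC, added after the data were seen, was present in 3 of 30 members (10%), *Acat2*, *Hmgcs1* and *Insig1*, compared with 6.05% of all genes. The E-box TCACGTGA was present in 0 of 30 members and in 0.907% of all genes. The core lies within the longer element, and matches of the NF-Y box on opposite strands can overlap. A match describes the letters and does not show a binding site. The following lines give 150 bases upstream of the start for 5 cholesterol genes (3 of them lower in Act than in CTRL, namely *Mvk*, *Hsd17b7* and *Srebf2*) and for *Fasn* and *Acly*, which did not pass the test. They are written 5′ to 3′ on the strand of the gene, with NF-Y boxes (CCAAT or its reverse complement ATTGG) and the sterol element in capitals.
*Hmgcs1*, chr13:119690201-119690350, plus strand: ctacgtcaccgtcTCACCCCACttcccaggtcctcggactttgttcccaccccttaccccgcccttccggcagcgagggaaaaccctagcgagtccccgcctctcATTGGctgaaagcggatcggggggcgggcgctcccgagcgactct
*Mvk*, chr5:114444119-114444268, plus strand: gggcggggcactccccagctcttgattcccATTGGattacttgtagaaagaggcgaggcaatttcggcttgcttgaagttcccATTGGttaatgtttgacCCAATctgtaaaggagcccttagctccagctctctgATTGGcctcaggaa
*Mvd*, chr8:122443423-122443572, minus strand: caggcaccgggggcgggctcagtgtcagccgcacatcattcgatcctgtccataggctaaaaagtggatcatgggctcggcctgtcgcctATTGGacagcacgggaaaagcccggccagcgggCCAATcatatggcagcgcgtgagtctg
*Hsd17b7*, chr1:169969242-169969391, minus strand: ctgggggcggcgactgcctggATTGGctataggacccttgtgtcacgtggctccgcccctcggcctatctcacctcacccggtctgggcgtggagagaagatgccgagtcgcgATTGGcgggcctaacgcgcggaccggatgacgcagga
*Srebf2*, chr15:82147031-82147180, plus strand: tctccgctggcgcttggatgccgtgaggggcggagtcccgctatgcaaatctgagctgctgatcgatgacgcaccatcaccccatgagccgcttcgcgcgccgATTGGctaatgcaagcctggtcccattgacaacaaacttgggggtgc
*Fasn*, chr11:120824548-120824697, minus strand: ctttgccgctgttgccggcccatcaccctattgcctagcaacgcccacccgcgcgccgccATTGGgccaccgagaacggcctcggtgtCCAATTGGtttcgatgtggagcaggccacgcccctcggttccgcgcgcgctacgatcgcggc
*Acly*, chr11:100528001-100528150, minus strand: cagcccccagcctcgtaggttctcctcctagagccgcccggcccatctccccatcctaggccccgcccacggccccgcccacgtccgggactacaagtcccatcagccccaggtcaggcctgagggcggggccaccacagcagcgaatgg
*Mvk* held 4 NF-Y boxes in this stretch, *Fasn* 3, *Mvd* and *Hsd17b7* 2 each, *Hmgcs1* and *Srebf2* 1 each, and *Acly* 0. The sterol element was matched in the stretch of *Hmgcs1* alone, so the other stretches do not show both motifs together. The stretch ends 36 bases before the RefSeq start of *Hsd17b7* and 88 bases before that of *Srebf2*, where the annotated gene begins earlier.

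Values are gene counts that the authors scaled by 1 factor per library and rounded, called normalized counts. The total per library lay between 5643708 and 5955400. *Pmepa1*, a target of activin signaling, had 756 to 871 normalized counts in Act and 5 to 50 in the other 9 libraries, in the order that the labels give. The 7 macrophage markers summed to 10836 to 11423 normalized counts in Act and 10699 to 11646 in CTRL, and 0 of the 7 passed the test in Act versus CTRL. In bulk RNA, fewer cells of a type and less RNA per cell cannot be told apart. Per base of exon, members ranged from 0.00939 normalized counts for *Fdps* to 0.252 for *Acly*, a level above that of 94.4% of the genes tested. Within the roles, the highest levels per exonic base were those of *Hmgcs1* (0.174), *Ebp* (0.127), *Srebf2* (0.167), *Acly* (0.252) and *Scd2* (0.249).

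With activin A, mRNA of many genes of the cholesterol pathway was lower, and 0 of the members were called higher. In Act versus CTRL, 17 of the 37 members (45.9%) were lower and 0 were higher by limma on log2(normalized count + 1) with the p adjusted over 14318 genes (Benjamini-Hochberg) at or below 0.05. Of all genes tested, 9.97% were lower and 10.3% were higher by this rule. At an unadjusted p under 0.05, 21 members were lower (16% of all genes) and again 0 higher (16.2% of all genes). The median log2 difference was −0.37 over the members and 0.004 over all genes, and 33 of the 37 members lay below 0. A fall of at least 2-fold was called for 4 members, *Idi1*, *Sqle*, *Hsd17b7* and *Scd1*, where 3.09% of all genes met this rule. Libraries of the same replicate number deviated together, and with the replicate number as a block 24 members were lower (background 15.2%), including all 17. The count fell from 17 to 11 without CTRL replicate 3, and it was 14 without replicate 3 of every group, where *Acat2* (adjusted p = 0.0656), *Lbr* (0.18) and *Elovl6* (0.0701) lost their calls.

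**Figure D1:**
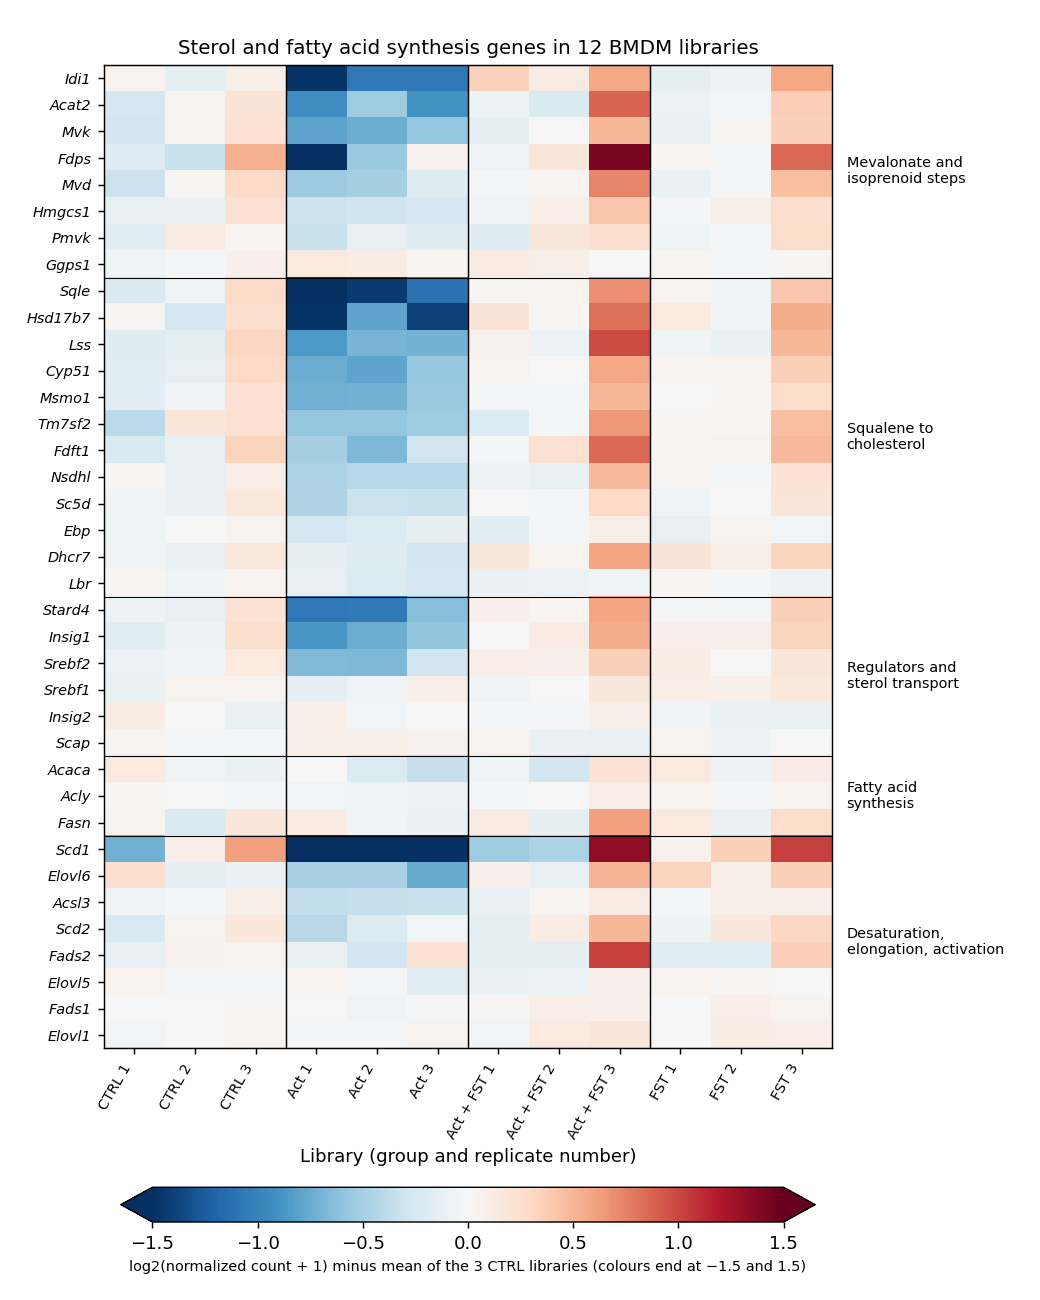
Heat map of log2(normalized count + 1) minus the mean of the 3 CTRL libraries for the 37 member genes (rows, grouped by role) in 12 libraries (columns, group and replicate number), with colours from −1.5 to 1.5. The Act columns are blue for most cholesterol genes and close to white for *Srebf1*, *Insig2*, *Acly*, *Fads1* and *Elovl1*, and replicate 3 of Act + FST is the reddest column.

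The separation of the libraries was of the same kind. All 3 Act libraries lay below all other 9 libraries for 22 of the 37 members, a pattern seen in 11.3% of all genes tested, and above all other 9 for *Scap* alone, a pattern of 12.6% of all genes. Within replicate numbers, 28 of the 37 members were lower in Act than in CTRL in all 3 pairs, compared with 27.8% of all genes. The median difference over members was −0.22 in pair 1, −0.30 in pair 2 and −0.46 in pair 3. Summed over the 37 members, CTRL libraries had 16663, 17074 and 19171 normalized counts and Act libraries 14050, 14132 and 14889. The 6 markers of dividing cells also moved with the group. They summed to 1799 to 1898 in Act and 2486 to 2930 in CTRL, and *Top2a*, *Ccnb1*, *Mcm5* and *Pcna* were lower in Act, while *Mki67* and *Cdk1* did not pass the test. The 3 monocyte markers summed to 140 to 247 in Act and 160 to 311 in CTRL with 0 of 3 called (2 of 3 lower with the block), and the 4 neutrophil markers to 1905 to 2042 in Act and 1376 to 1566 in CTRL, with 1 of 4 (*Csf3r*) higher. The 5 fibroblast markers in the table, of 6 listed, summed to 12 to 200 in Act and 3 to 55 in CTRL, and of the 2 that were tested 0 were called, while with the block *Col1a2* was higher (2.76, adjusted p = 0.31, and 0.000473 with the block). Of the lymphocyte markers, 2 of 3 were in the table and summed to 5 to 21 in CTRL and 8 to 14 in Act, and of the adipocyte markers 0 of 4. The part of these other cell markers in the fall of the sterol genes was not tested.

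Among the mevalonate and isoprenoid genes, 3 of 8 fell in Act versus CTRL (6 of 8 with the block), with a median log2 difference of −0.55. *Idi1*, on chromosome 13 from 8885501 to 8892451, encodes the isomerase that makes the reactive isoprenoid unit. It had 45, 39 and 46 normalized counts in CTRL, 15, 20 and 20 in Act, 55, 47 and 65 in Act + FST, and 39, 41 and 65 in FST (replicates 1, 2 and 3). Every Act library was below every other library, and the log2 difference of Act and CTRL was −1.21 (standard error 0.22, limma adjusted p = 0.00179), which is 0.434 times the CTRL level. Of the 75-base windows in its coding transcripts, 26.6% are shared with other genes, which matters for a count of uniquely aligned reads, and 9.22% of its exonic bases have a gene on the opposite strand. *Mvk*, mevalonate kinase, had 149, 187 and 210 normalized counts in CTRL, 104, 107 and 120 in Act, 163, 179 and 254 in Act + FST and 168, 186 and 232 in FST. Its groups Act and CTRL did not overlap, with a log2 difference of −0.71 (standard error 0.17, adjusted p = 0.0115), although the call was lost without CTRL replicate 3 (adjusted p = 0.0556). *Acat2*, the thiolase of the first step, had 84, 104 and 115 normalized counts in CTRL, 52, 69 and 53 in Act, 95, 86 and 184 in Act + FST, and 94, 97 and 130 in FST. Its log2 difference of −0.79 (standard error 0.25) was close to the threshold (adjusted p = 0.0427) and was lost without CTRL replicate 2 (0.108), CTRL replicate 3 (0.142), Act replicate 1 (0.122), Act replicate 3 (0.121) or FST replicate 2 (0.0548). *Acat2* shares 35.6% of its coding windows with other genes, *Acat3* among them.

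*Hmgcs1*, HMG-CoA synthase, carries the sterol element shown above and moved less than these 3 genes. It had 733, 740 and 918 normalized counts in CTRL, 635, 645 and 661 in Act, 765, 847 and 1058 in Act + FST, and 774, 845 and 944 in FST. All Act libraries were the lowest, but the log2 difference from CTRL of −0.29 (standard error 0.11) did not pass (adjusted p = 0.0937), and did with the block (0.00165) and without Act + FST replicate 3 (0.0359). *Mvd*, the decarboxylase of the pathway, had CTRL values of 216, 276 and 333 normalized counts that overlapped the Act values of 185, 192 and 239, and its log2 difference of −0.41 passed only with the block (adjusted p = 0.217, and 0.00126 with the block). *Fdps*, which makes farnesyl diphosphate, likewise passed only with the block (−0.69, adjusted p = 0.343, and 0.0291 with the block). It had 27 to 50 normalized counts in CTRL and 11 to 36 in Act and shares 58.5% of its coding windows with other genes, so that its level is uncertain. *Pmvk*, the next kinase, did not pass in either fit (−0.21, adjusted p = 0.283). *Ggps1*, which leads isoprenoids away from sterols toward geranylgeranyl groups, had 441 to 487 normalized counts in CTRL and 471 to 511 in Act, with a log2 difference of 0.10 (95% interval −0.015 to 0.21).

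From squalene to cholesterol, 8 of 12 genes fell (11 of 12 with the block), all 12 log2 differences lay below 0, and their median was −0.52. The lowest was that of *Sqle*, squalene monooxygenase, a rate-limiting enzyme of the pathway, on chromosome 15 from 59315077 to 59331192. Its normalized counts were 353, 394 and 501 in CTRL, 140, 152 and 191 in Act, 415, 428 and 664 in Act + FST, and 426, 392 and 545 in FST. The highest Act library stood far below the lowest of the others, and the log2 difference was −1.36 (standard error 0.19, adjusted p = 0.000318), or 0.389 times the CTRL level, with −1.33, −1.37 and −1.39 in the 3 replicate pairs. *Hsd17b7*, a ketosteroid reductase that acts on the sterol ring, had 111, 91 and 130 normalized counts in CTRL, 39, 63 and 41 in Act, 125, 111 and 195 in Act + FST, and 121, 105 and 162 in FST. The groups did not overlap, and the log2 difference was −1.22 (standard error 0.24, adjusted p = 0.00361). *Cyp51*, lanosterol demethylase, had 452, 464 and 622 normalized counts in CTRL, 303, 293 and 342 in Act, 525, 505 and 760 in Act + FST, and 519, 528 and 649 in FST. *Msmo1*, the methylsterol oxidase that acts after it, had 444, 477 and 576 in CTRL, 301, 303 and 336 in Act, 487, 486 and 699 in Act + FST, and 497, 504 and 597 in FST. Both genes fell by a similar amount, with log2 differences of −0.70 (standard error 0.16, adjusted p = 0.00718) for *Cyp51* and −0.66 (standard error 0.14, adjusted p = 0.00412) for *Msmo1*.

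The remaining calls of this stretch of the pathway were smaller or less stable. *Sc5d*, a sterol desaturase, had 601, 581 and 694 normalized counts in CTRL, 456, 498 and 496 in Act, 619, 611 and 767 in Act + FST, and 594, 625 and 709 in FST. It fell by 0.37 on the log2 scale (standard error 0.095, adjusted p = 0.0161), and the call was lost without CTRL replicate 3 (0.075) or Act replicate 1 (0.0621). *Nsdhl*, a sterol dehydrogenase, had 322, 292 and 342 normalized counts in CTRL, 228, 237 and 237 in Act, 301, 295 and 447 in Act + FST, and 327, 312 and 369 in FST. No Act library reached the others, and the log2 difference of −0.44 (standard error 0.13, adjusted p = 0.0313) lost its call without CTRL replicate 1 (0.0702), CTRL replicate 3 (0.113), or Act replicates 1 (0.0854), 2 (0.0722) or 3 (0.0725). *Lss*, lanosterol synthase, had 355, 364 and 501 normalized counts in CTRL, 220, 247 and 245 in Act, 420, 377 and 794 in Act + FST, and 387, 374 and 568 in FST. Its log2 difference of −0.76 (standard error 0.24, adjusted p = 0.0443) was the least stable call. It was lost in 8 of 12 fits with 1 library left out, namely without CTRL replicates 1 (0.0527), 2 (0.0702) or 3 (0.168), Act replicates 1 (0.12), 2 (0.089) or 3 (0.0912), or FST replicates 1 (0.0512) or 2 (0.0521). *Lbr*, which is a sterol reductase and also the lamin B receptor, had 546, 512 and 549 normalized counts in CTRL, 490, 465 and 451 in Act, 501, 505 and 512 in Act + FST, and 548, 530 and 505 in FST. The fall was small, 0.875 times the CTRL level (log2 difference −0.19, standard error 0.047, adjusted p = 0.0113), and it was lost without CTRL replicate 3 (0.0514) or Act replicate 3 (0.0529).

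*Tm7sf2*, the other sterol reductase of the same step, had 118, 177 and 183 normalized counts in CTRL, 104, 104 and 108 in Act, 135, 153 and 246 in Act + FST, and 160, 160 and 214 in FST. Its log2 difference of −0.57 (standard error 0.21) did not pass (adjusted p = 0.0837, and 0.00559 with the block), and did without CTRL replicate 1 (0.0246) or Act + FST replicate 3 (0.0258). *Fdft1*, squalene synthase, had 176, 191 and 259 normalized counts in CTRL, 145, 129 and 170 in Act, 201, 242 and 372 in Act + FST, and 211, 213 and 288 in FST. It did not pass either (log2 difference −0.48, adjusted p = 0.138) and did with the block (0.00122). It shares 25.4% of its coding windows with other genes, and 18.3% of its exonic bases have *Ctsb* on the opposite strand. *Ebp*, a sterol isomerase, had 294, 309 and 317 normalized counts in CTRL, 256, 265 and 277 in Act, 274, 301 and 326 in Act + FST, and 282, 317 and 297 in FST. Its difference of −0.21 passed with the block (adjusted p = 0.0559, and 0.00802 with the block), and without Act + FST replicate 1 (0.0323) or 3 (0.0353). *Dhcr7*, the reductase of the last step, had 309 to 372 normalized counts in CTRL and 273 to 301 in Act and did not pass in either fit (−0.21, adjusted p = 0.276).

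Of the 6 regulators and transporters, 3 fell, and the 6 genes were split within the same system. *Srebf2*, the source of SREBP2, on chromosome 15 from 82147181 to 82205379, had 1153, 1179 and 1361 normalized counts in CTRL, 778, 767 and 1016 in Act, 1316, 1291 and 1572 in Act + FST, and 1324, 1233 and 1393 in FST. All Act libraries were below all others, with a log2 difference of −0.54 (standard error 0.11, adjusted p = 0.00408), or 0.69 times the CTRL level. *Srebf1* had normalized counts of 603, 642 and 706 in Act and of 618, 691 and 687 in CTRL, with a difference of −0.034 (95% interval −0.19 to 0.12). *Insig1*, which holds SCAP in the endoplasmic reticulum and is itself a target of SREBP2, had 467, 491 and 615 normalized counts in CTRL, 283, 311 and 346 in Act, 519, 566 and 767 in Act + FST, and 548, 548 and 656 in FST. It fell by 0.74 on the log2 scale (standard error 0.14, adjusted p = 0.00285), whereas its paralog *Insig2* had 300 to 351 normalized counts in CTRL and 315 to 345 in Act (difference 0.02, interval −0.12 to 0.16). *Stard4*, a carrier of cholesterol between membranes, had 551, 532 and 671 normalized counts in CTRL, 277, 279 and 373 in Act, 612, 592 and 877 in Act + FST, and 576, 573 and 746 in FST. Its fall to 0.528 times the CTRL level (log2 difference −0.92, standard error 0.16, adjusted p = 0.00169) was the deepest of the 6. *Scap* had 592 to 621 normalized counts in CTRL and 630 to 643 in Act, with a difference of 0.08 (interval −0.027 to 0.19), and 13.2% of its exonic bases have a gene on the opposite strand.

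**Figure D2:**
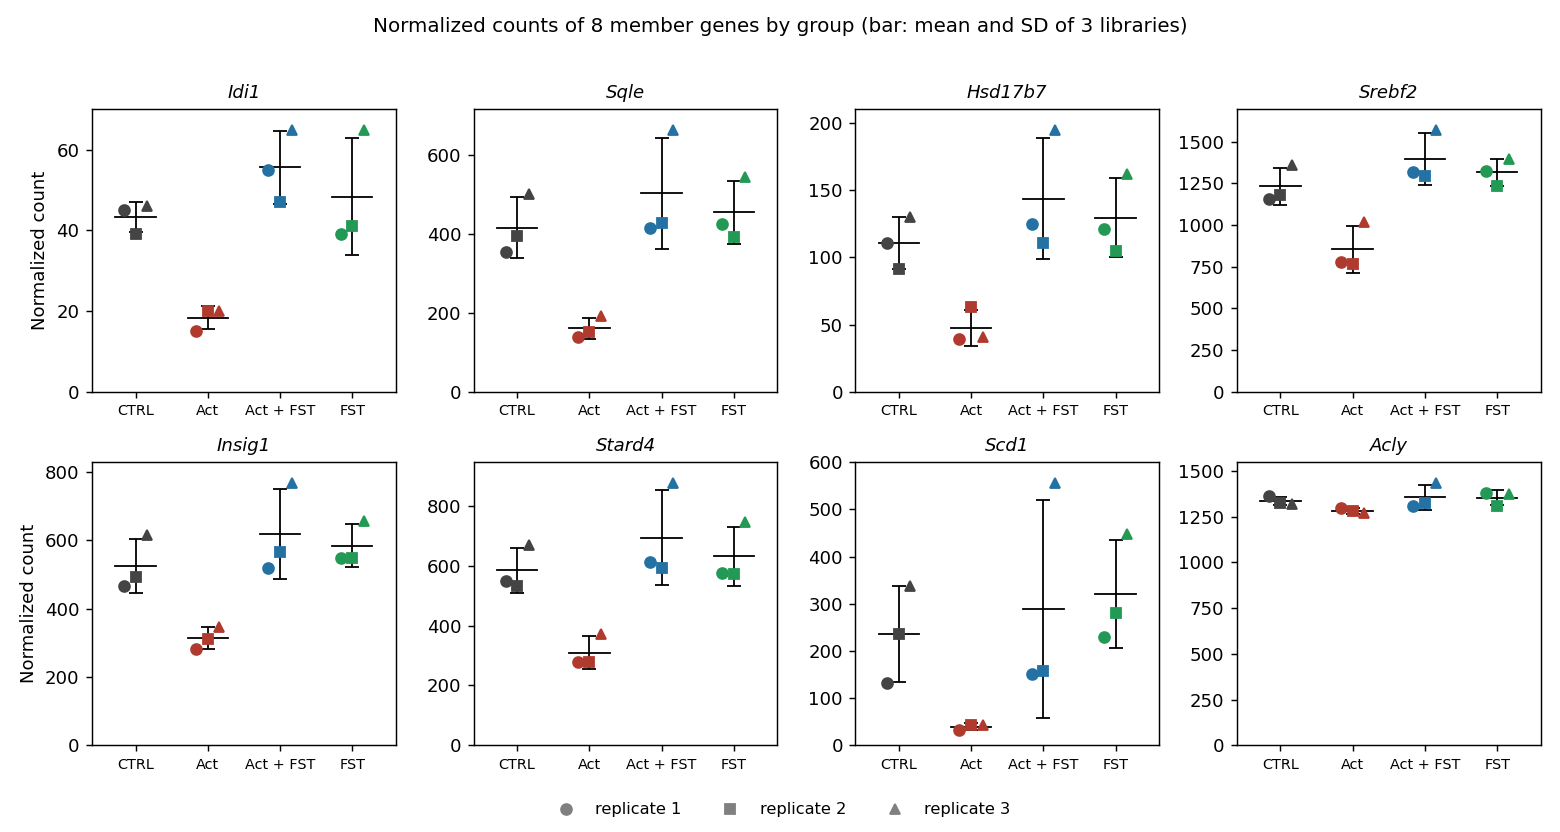
Normalized counts (vertical axes, from 0) of 8 member genes in the groups CTRL, Act, Act + FST and FST, with 1 symbol per library and the mean and SD of 3 libraries as bars. The Act symbols lie below all others in the 8 panels, far below for *Idi1* (15 to 20) and *Sqle* (140 to 191) and only slightly for *Acly* (1267 to 1296), and replicate 3 is the highest symbol of Act + FST in every panel.

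Of the 3 fatty acid synthesis genes, 0 were called in either direction, also with the block, and their median log2 difference was −0.06. Over all genes tested, 9.97% were lower and 10.3% higher (15.2% and 16.3% with the block), so a count of 0 of 3 is near the background. *Acly*, which makes cytosolic acetyl-CoA for both pathways, had 1360, 1324 and 1318 normalized counts in CTRL, 1296, 1279 and 1267 in Act, 1308, 1325 and 1433 in Act + FST, and 1379, 1306 and 1374 in FST. The Act libraries were the lowest of the 12, but the difference was only −0.059 (95% interval −0.15 to 0.032, adjusted p = 0.385). *Fasn*, fatty acid synthase, had 584 to 768 normalized counts in CTRL and 635 to 741 in Act (difference −0.015, interval −0.37 to 0.34). *Acaca*, acetyl-CoA carboxylase, had 259 to 306 in CTRL and 218 to 277 in Act (difference −0.18, interval −0.45 to 0.084), and it shares 44.2% of its coding windows with other genes.

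Of the 8 genes that desaturate, elongate or activate fatty acids, 3 fell (4 with the block). *Scd1*, stearoyl-CoA desaturase, on chromosome 19 from 44394455 to 44407879, showed the deepest fall of all 37 members. Its normalized counts were 133, 236 and 338 in CTRL, 32, 43 and 44 in Act, 152, 158 and 556 in Act + FST, and 230, 281 and 449 in FST. The Act libraries were alike while the other groups spread widely, and the log2 difference was −2.46 (standard error 0.46, adjusted p = 0.00225), or 0.182 times the CTRL level. Its paralog *Scd2*, the desaturase with the highest level per exonic base, had 1133, 1380 and 1496 normalized counts in CTRL, 991, 1147 and 1290 in Act, 1205, 1431 and 1872 in Act + FST, and 1258, 1493 and 1649 in FST. These groups overlapped, and the log2 difference of −0.22 (standard error 0.16) passed only with the block (adjusted p = 0.373, and 0.00274 with the block). *Scd1* and *Scd2* share 3.2% and 1.8% of their coding windows with other genes. *Elovl6*, an elongase that acts on saturated fatty acids, had 173, 131 and 136 normalized counts in CTRL, 104, 104 and 86 in Act, 153, 135 and 207 in Act + FST, and 184, 155 and 186 in FST. It fell by 0.57 on the log2 scale (standard error 0.16, adjusted p = 0.0219), and the call was lost without CTRL replicate 1 (0.0803), Act replicate 3 (0.0886) or replicate 3 of every group (0.0701). *Acsl3*, which attaches CoA to long-chain fatty acids, had 541, 552 and 596 normalized counts in CTRL, 436, 443 and 446 in Act, 521, 578 and 613 in Act + FST, and 553, 596 and 597 in FST. The tight Act values gave a log2 difference of −0.35 (standard error 0.06, adjusted p = 0.00136). *Fads1*, *Fads2*, *Elovl1* and *Elovl5*, which make polyunsaturated and very long chains, did not pass in either fit, with differences between −0.056 and 0.004 from CTRL.

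Other genes of the same pathways came from a list of 25, of which 23 were tested. In Act versus CTRL 4 were lower and 2 were higher (5 and 3 with the block), with a median log2 difference of −0.022. Of all genes tested, 9.97% were lower and 10.3% higher (15.2% and 16.3% with the block). *Tmem97*, a binding partner of the cholesterol transporter NPC1, was among the lower genes (−0.35, adjusted p = 0.00364). *Acsl1*, another acyl-CoA synthetase, was higher by 0.28 (adjusted p = 0.00253) and *Hacd2*, a dehydratase of fatty acid elongation, by 0.30 (adjusted p = 0.0208). Of 7 liver X receptor genes, which are the sterol-activated receptors and their targets, 1 was higher and 0 lower (3 and 1 with the block), where 10.3% of all genes were higher in the fit without the block. It was *Mylip*, which encodes a ubiquitin ligase induced by sterols, with 834, 867 and 838 normalized counts in CTRL, 1152, 1202 and 1162 in Act, 777, 846 and 765 in Act + FST, and 792, 900 and 781 in FST (log2 difference 0.47, adjusted p = 9.61e-05). *Abca1*, the cholesterol exporter, had 4200 to 4848 in CTRL and 4769 to 5397 in Act and did not pass (0.18, adjusted p = 0.18, and 0.0146 with the block).

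With FST288 added to activin A, most members stood higher than with activin A alone (34 of 37 by the log2 difference, compared with 50.6% of all genes). In Act versus Act + FST, 21 of the 37 members were lower in Act (background 10.2%) and 0 were higher (background 11.1%, with *Scap* higher at an unadjusted p under 0.05). The block gave 26 lower (background 15.4%) and 1 higher, *Scap* (background 17.1%, adjusted p = 0.0164). The members added by the block were *Pmvk*, *Fdps*, *Ebp*, *Scd2* and *Fads1*. A difference of at least 2-fold was called for 6 members, *Idi1*, *Sqle*, *Lss*, *Hsd17b7*, *Stard4* and *Scd1* (background 3.11%). The count was 18 without Act + FST replicate 3 and also without replicate 3 of every group. This comparison shares the Act libraries with Act versus CTRL, so the values of both are given side by side and are not independent. For *Sqle* the log2 differences were −1.61 (standard error 0.19, adjusted p = 8.89e-05) against Act + FST and −1.36 against CTRL, and for *Idi1* they were −1.55 (adjusted p = 0.000292) and −1.21. *Hsd17b7* differed by −1.56 (adjusted p = 0.000659) from Act + FST, *Stard4* by −1.15 (adjusted p = 0.000344), *Insig1* by −0.96 (adjusted p = 0.000451), *Srebf2* by −0.71 (adjusted p = 0.000596) and *Scd1* by −2.57 (adjusted p = 0.00163). The *Scd1* value rests in part on Act + FST replicate 3, without which it was −1.95 (adjusted p = 0.00217). The 5 members with a call here and none against CTRL were *Hmgcs1* (adjusted p = 0.014), *Mvd* (0.0464), *Fdft1* (0.014), *Tm7sf2* (0.0338) and *Dhcr7* (0.0135), and *Lbr* had a call against CTRL and none here (0.117). Leaving out 1 library ended the calls of *Hmgcs1* (0.0518 without Act + FST replicate 3), *Fdft1* (0.0598 without Act replicate 2), *Acat2* (0.0509 without Act replicate 3), *Dhcr7* (0.0541 without Act replicate 3), *Mvd* (0.181 without Act + FST replicate 3, 0.136 and 0.127 without Act replicates 1 and 2, 0.0612 without CTRL replicate 2, and 0.0583 without FST replicate 2) and *Tm7sf2* (0.126 without Act + FST replicate 3, and 0.0818, 0.086 and 0.0748 without Act replicates 1, 2 and 3). Without Act + FST replicate 1, *Ebp* (0.0281), *Scd2* (0.0316), *Pmvk* (0.0267) and *Elovl1* (0.0391) were called lower and *Scap* (0.0116) higher, and without Act replicate 3 *Fdps* was called lower (0.0419). By role, 5 of 8 mevalonate and isoprenoid genes, 10 of 12 genes from squalene to cholesterol, 3 of 6 regulators, 0 of 3 fatty acid synthesis genes and 3 of 8 genes of desaturation, elongation and activation were lower. Without replicate 3 of every group *Acat2* (0.0854), *Tm7sf2* (0.159) and *Elovl6* (0.109) lost their calls. The dividing cell markers moved in the same direction, with sums of 2113 to 4577 in Act + FST and 3 of 6 lower in Act (*Top2a*, *Ccnb1* and *Mcm5*), and 6 of 6 with the block. Their part in this difference was not tested.

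Act + FST versus FST gives the effect of activin A in the presence of FST288 and shares no library with Act versus CTRL. It was added after the data were seen. Here 0 of 37 members were lower and 0 were higher by limma, as for all genes tested (0% in each direction), also 0 of 37 with the block, and 0 and 0 at an unadjusted p under 0.05 (1 higher with the block). The median log2 difference of the members was 0.049, with a range from −0.37 (*Scd1*) to 0.24 (*Fads2*). The intervals bound the effect that could have been missed. For *Sqle* the difference was 0.12 (95% interval −0.29 to 0.54), compared with −1.36 (−1.78 to −0.95) for Act versus CTRL. For *Srebf2* it was 0.077 (−0.16 to 0.31), compared with −0.54 (−0.77 to −0.30), and for *Stard4* 0.12 (−0.23 to 0.48), compared with −0.92 (−1.28 to −0.57). For *Scd1* the interval was wide, from −1.36 to 0.62, and it did not reach the difference of −2.46 seen without FST288.

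**Figure D3:**
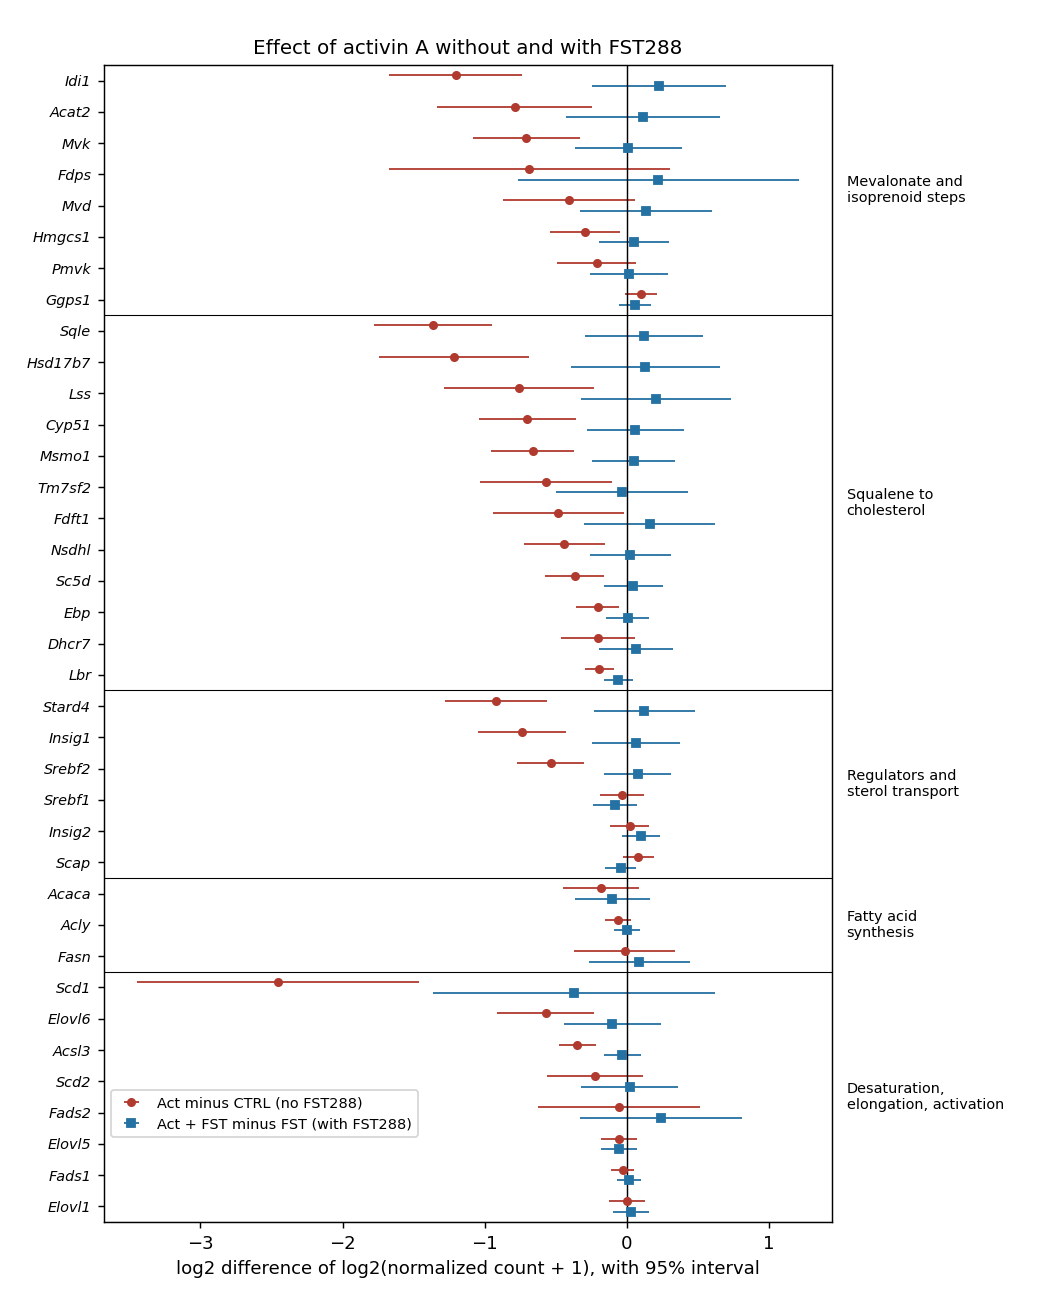
The log2 difference of each member gene (rows, grouped by role) for Act minus CTRL (circles) and Act + FST minus FST (squares), with 95% intervals from the fit. Without FST288 most cholesterol genes lie left of 0 (down to −1.36 for *Sqle*), and the fatty acid desaturase *Scd1* lies lowest of all (−2.46). With FST288 all 37 intervals cross 0.

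The difference between these effects was itself tested as the interaction of activin A and FST288. In 8 of the 37 members the activin A effect was lower without FST288 than with it (background 2.75%), and in 0 it was higher (background 3.99%, with 0 members at an unadjusted p under 0.05). The 8 members were *Idi1* (−1.43, adjusted p = 0.0148), *Sqle* (−1.49, adjusted p = 0.00575), *Msmo1* (−0.71, adjusted p = 0.0441), *Hsd17b7* (−1.35, adjusted p = 0.0354), *Srebf2* (−0.61, adjusted p = 0.0333), *Insig1* (−0.80, adjusted p = 0.0328), *Stard4* (−1.04, adjusted p = 0.0178) and *Acsl3* (−0.32, adjusted p = 0.043). With the block there were 19 members (background 6.96%). Without the block the count depended on single libraries. It was 2 without CTRL replicate 3, 3 without Act replicate 1, FST replicate 1 or FST replicate 2, 4 without CTRL replicate 2 or Act replicate 2, and 5 without Act replicate 3 or Act + FST replicate 3. For *Scd1* the interaction of −2.08 did not pass (adjusted p = 0.0773, and 0.000645 with the block).

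Neither FST nor Act + FST gave a call against CTRL without the block, although most members lay slightly above CTRL. In FST versus CTRL 0 of 37 were lower and 0 higher by limma (0% of all genes in each direction), also with the block. At an unadjusted p under 0.05 there were 0 and 0, and with the block 6 members were higher (2.7% of all genes) and 0 lower. The median log2 difference was 0.10 over the members and 0.002 over all genes, and 4 of 37 members lay below 0, compared with 48.6% of all genes. In Act + FST versus CTRL 0 of 37 members were lower and 0 higher (0% of all genes in each direction), and at an unadjusted p under 0.05 *Dhcr7* alone was higher (2.49% of all genes), whereas with the block 14 members were (4.66% of all genes). With the block *Stard4* was higher (adjusted p = 0.048, background 0.279%), by 0.23 on the log2 scale, and 0 members were lower. The median was 0.15 over the members, and 5 of 37 lay below 0, compared with 50.4% of all genes. The 2 comparisons share the CTRL libraries. For *Sqle*, FST lay above CTRL by 0.13 (95% interval −0.29 to 0.54) and Act + FST by 0.25 (−0.16 to 0.67), and for *Srebf2* by 0.099 (−0.14 to 0.34) and 0.18 (−0.061 to 0.41).

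A second pattern ran across the groups, by replicate number. Replicate 3 was compared with the mean of replicates 1 and 2 over the 4 groups, in the fit with the block and after the data were seen. In replicate 3, 19 of the 37 members were higher (background 1.86%) and 0 were lower (background 3.69%), with a median log2 difference of 0.25 over the members and −0.002 over all genes. Replicate 3 was the highest of its group in all 4 groups for 15 of the 37 members, compared with 2.7% of all genes. *Stard4* was higher by 0.41 (adjusted p = 2.65e-05), *Sqle* by 0.47 (adjusted p = 0.00019), *Scd2* by 0.33 (adjusted p = 0.000382), *Mvd* by 0.51 (adjusted p = 0.000612), *Scd1* by 0.96 (adjusted p = 0.00721) and *Fdps* by 1.03 (adjusted p = 0.0033). The members without a call in Act versus CTRL included some that moved here, such as *Fads2* (0.55, adjusted p = 0.015) and *Srebf1* (0.14, adjusted p = 0.0273), while *Acly*, *Elovl5*, *Fads1*, *Ggps1*, *Scap* and *Insig2* stayed between −0.036 and 0.027.

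**Figure D4:**
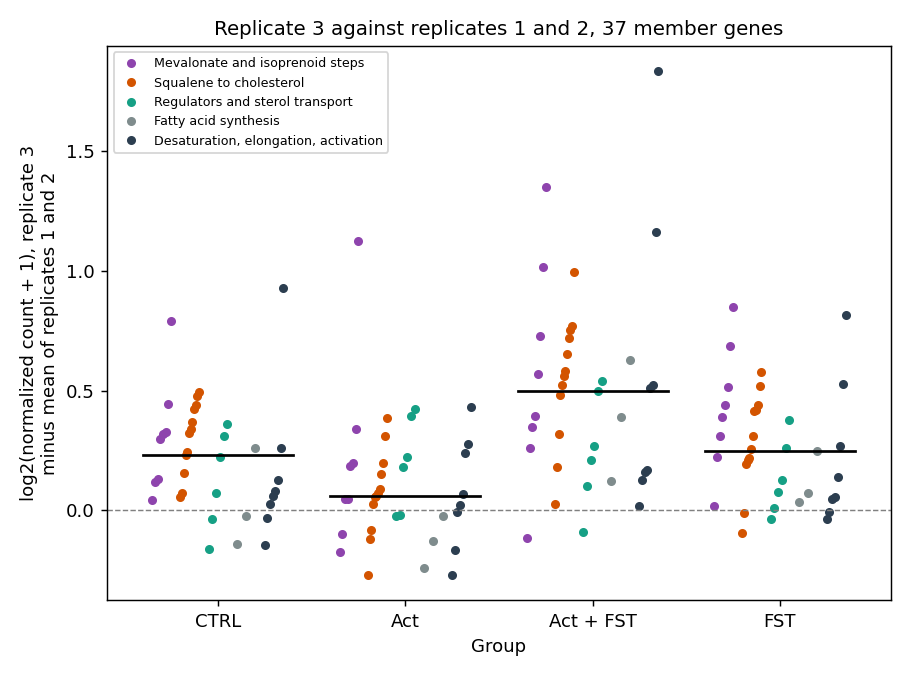
Replicate 3 minus the mean of replicates 1 and 2 on the scale of log2(normalized count + 1), for each of the 37 member genes (points, coloured by role) in the 4 groups, with the median of the members as a black line. The line is highest in Act + FST (0.50) and lowest in Act (0.058), and the highest point is that of *Scd1* in Act + FST (1.84).

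The size of this shift differed between groups. The members' median was lowest in Act (0.058) and highest in Act + FST (0.50), with CTRL at 0.23 and FST at 0.25, and over all genes it lay between −0.004 and 0 in each group. The difference between groups was not tested. Summed over the 37 members, Act + FST replicate 3 had 23035 normalized counts, compared with 17337 and 17680 in replicates 1 and 2, and FST had 20395 in replicate 3 against 17836 and 17894. The dividing cell markers were highest in the same Act + FST library, where *Top2a* had 1221 normalized counts against 569 and 456, and *Ccnb1* 209 against 63 and 44. In CTRL *Top2a* had 680, 582 and 497 normalized counts in replicates 1, 2 and 3, and *Ccnb1* had 80, 70 and 60. In FST *Top2a* had 682, 466 and 664, and *Ccnb1* had 66, 55 and 90. In Act *Top2a* had 288, 251 and 245, and *Ccnb1* had 22, 8 and 21. The part of dividing cells in the shift was not tested.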

How the data were processed

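RNA was measured in 12 libraries of BMDMs, 3 per group. Per the study's methods, stranded mRNA libraries were sequenced as single-end reads, trimmed with Trimmomatic 0.39, aligned to mm10 (GRCm38) with STAR 2.7.9a, and counted per gene with featureCounts 2.0.2, without multi-mapped reads or those over more than 1 gene. Removal of duplicates and the strand setting of the counting are not given in the sources used here. The deposited values are a score on no fixed scale, namely gene counts that the authors scaled by 1 factor per library and rounded, from which whole reads could not be recovered. Sequencing depth is therefore unknown, and count models were not used.

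Group means of log2(value + 1) were compared in a two-sided test by limma 3.58.1 under R 4.3.3 (all 12 libraries in 1 model, trended empirical Bayes). A mean of at least 5 was required, which 14318 genes met, and genes were called where the p adjusted by Benjamini-Hochberg was 0.05 or less, with a fold of at least 2 as the study's stricter rule. Fold changes on this scale understate those of low genes. Each adjusted p is that of limma over all genes tested. In simulated data the fit recovered 81.6% of genes changed 2-fold and 90.8% of those changed 4-fold, with 7 false calls. The simulated libraries were independent, so this does not test the fit where libraries of the same replicate number deviate together.

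Groups and replicate numbers come from the labels. Deviations from group means correlated between libraries with the same number (0.157 to 0.481 in 18 pairs), so that a replicate block was fitted beside the main model. The members and lists were chosen with earlier results of these data known. Some genes of the list of other pathway genes are counted but not reported here by name. Values in every library are given for the 20 members with the smallest p in Act versus CTRL among the 22 called in Act versus CTRL or Act versus Act + FST, and for the member with the highest level per exonic base in each role. Coordinates of all 37 members match GENCODE M21. Alternatives were other pseudocounts (0.5 and 5), filters (none and a mean of 50), quantile and TMM normalization, 6 libraries per fit, the block, and leaving out each library. Added after the data were seen were a correction as if only 1 read were kept per start position, a limit of 20% on windows shared with other genes, the replicate 3 and Act + FST versus FST comparisons, the rule on overlap, and leaving out replicate 3.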

Additional observations from a re-analysis of the deposited data

Results flagged for a closer look

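For 8 members the effect of activin A differed between cells without and with FST288, by the limma interaction test. The effect without FST288 minus that with it was −1.43 on the log2 scale for *Idi1*, −1.49 for *Sqle*, −0.71 for *Msmo1*, −1.35 for *Hsd17b7*, −0.61 for *Srebf2*, −0.80 for *Insig1*, −1.04 for *Stard4* and −0.32 for *Acsl3*. Adjusted p lay between 0.00575 (*Sqle*) and 0.0441 (*Msmo1*), and with the replicate block between 2.92e-07 (*Sqle* and *Stard4*) and 0.00496 (*Hsd17b7*). Without the block and CTRL replicate 3, the calls of *Msmo1* (0.107), *Hsd17b7* (0.0907), *Srebf2* (0.0857), *Insig1* (0.0797), *Stard4* (0.0509) and *Acsl3* (0.109) were lost. Without replicate 3 of every group, the calls of *Idi1* (0.0519), *Hsd17b7* (0.17) and *Acsl3* (0.308) were lost. Leaving out single libraries other than CTRL replicate 3 also ended calls of *Msmo1*, *Hsd17b7*, *Srebf2*, *Insig1* and *Acsl3*. With no filter on the mean, *Acsl3* lost its call too (0.0535). In all 8 members the 3 Act libraries were below all other 9 libraries, as in 11.3% of all genes tested. The interaction test used these same libraries, so this separation adds no separate evidence. With 3 libraries per group, single libraries were not tested as outliers.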

How the results depend on the processing

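The count of members called in Act versus CTRL (17) and in Act versus Act + FST (21) stayed within 1.5 times under other pseudocounts, filters and normalizations, with only the 6 libraries compared, with the start position correction and without replicate 3 of every group. Requiring a fold of at least 2 left 4 members in Act versus CTRL, 6 in Act versus Act + FST and 4 for the interaction. The replicate block moved the interaction from 8 to 19 members and Act + FST versus CTRL from 0 to 1, and it changed no call in FST versus CTRL or in Act + FST versus FST, which stayed at 0. Leaving out 1 library gave 11 to 20 members in Act versus CTRL, 18 to 26 in Act versus Act + FST (*Scap*, called higher, is 1 of the 26), and 2 to 9 for the interaction, and 0 in the other 3 comparisons. Among the 32 members with under 20% of exonic windows shared with other genes, 15 were called in Act versus CTRL. Under the alternatives that gave a value, the 23 members with values in every library kept their direction in Act versus CTRL and Act versus Act + FST. *Idi1* is not tested at a mean of at least 50. Over these 23 members and 2 comparisons (46 results), the block gave a call to 7 and ended 0, quantile normalization gave 2 and ended 0, and leaving out replicate 3 of every group ended 6. The largest move of a member's log2 difference by the start position correction was −0.056 (*Insig1*). Scaling alternatives moved the median of all genes to at most −0.014. The count test planned for whole counts was not run, because the deposited values are rounded scaled counts. Depth is unknown, and counting error weighs most on *Idi1* and *Fdps*, with means of 41.4 and 39.5 normalized counts.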
